A study of Mus musculus with 469 samples.

Results

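Sec14l3, Ermn, Krt8 and Krt18 are 4 genes known from the apical supporting cells of the mouse olfactory epithelium, and their levels were read in single-cell RNA libraries of that tissue as CPM, the deposited signal of a gene per 1000000 of a cell's total. They were chosen by name as structural genes of sustentacular cells, and they are 4 of 23281 gene entries. Sustentacular cells are the supporting cells that span the epithelium, wrap the sensory neurons, carry many enzymes that modify odorants and xenobiotics, and express simple-epithelial keratins. Sec14l3 belongs to the SEC14-like family of lipid-binding proteins. Ermn encodes ermin, an actin-binding protein related to the ezrin, radixin and moesin group and best known from the myelin sheath of oligodendrocytes. Krt8 and Krt18 encode a type II and a type I keratin that pair into the filaments of simple epithelia.

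The study captured single cells with the Fluidigm C1 system, which amplifies polyadenylated RNA cell by cell, from mice 8 weeks old. Progenitors and young neurons were sorted by a Neurog1-eGFP reporter from FVB Neurog1-eGFP mice without injury (61 libraries), and at 5 days (51) and 14 days (26) after olfactory bulbectomy, the removal of the bulb that leads to the death and replacement of the sensory neurons. Cells sorted by an OMP-eGFP reporter, which marks mature sensory neurons, came from B6 OMP-eGFP mice after transplantation (89 libraries, called engrafted here) and 14 days after bulbectomy (50). The reference was unsorted, uninjured epithelium of wild-type B6;129SF1/J (F1) mice, in 2 runs of 96 libraries each. Strain and sort cannot be told apart, and injury and transplantation were each present in some sorts and not in the reference. The labels name no animal, so each group counts as 1 sample, no difference has a replicate check and no p-value was computed. Intervals on shares of cells are exact Clopper-Pearson 95% intervals and cover the counting of cells only.

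The bases before the start of each gene are shown because the 4 genes were high in the same cells and because Krt8 and Krt18 are neighbours. They come from RefSeq, build GRCm38.p6, and each line gives the 250 bases before the annotated start, 5′ to 3′ on the strand of the gene. Capitals mark matches to the TATA box (TATAAA), the CAAT box motif (CCAAT), the GC box (GGGCGG) or the AP-1 site (TGANTCA), searched on both strands of the 300 bases from 250 before to 50 after each start.
Sec14l3, chr11:4064603-4064852, plus strand: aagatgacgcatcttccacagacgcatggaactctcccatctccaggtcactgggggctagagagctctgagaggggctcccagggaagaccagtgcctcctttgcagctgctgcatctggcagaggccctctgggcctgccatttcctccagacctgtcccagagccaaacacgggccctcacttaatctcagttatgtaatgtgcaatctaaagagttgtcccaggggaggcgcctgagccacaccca
Ermn, chr2:58052865-58053114, minus strand: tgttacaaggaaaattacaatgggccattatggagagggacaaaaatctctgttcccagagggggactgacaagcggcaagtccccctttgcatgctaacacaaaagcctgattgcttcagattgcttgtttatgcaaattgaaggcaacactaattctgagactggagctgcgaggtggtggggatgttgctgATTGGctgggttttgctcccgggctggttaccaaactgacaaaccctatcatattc
Krt8, chr15:102004343-102004592, minus strand: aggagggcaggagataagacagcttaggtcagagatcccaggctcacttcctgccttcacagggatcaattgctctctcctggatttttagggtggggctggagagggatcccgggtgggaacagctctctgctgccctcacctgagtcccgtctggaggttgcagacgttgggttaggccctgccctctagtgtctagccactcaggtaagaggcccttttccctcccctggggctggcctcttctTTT
Krt18, chr15:102027966-102028215, plus strand: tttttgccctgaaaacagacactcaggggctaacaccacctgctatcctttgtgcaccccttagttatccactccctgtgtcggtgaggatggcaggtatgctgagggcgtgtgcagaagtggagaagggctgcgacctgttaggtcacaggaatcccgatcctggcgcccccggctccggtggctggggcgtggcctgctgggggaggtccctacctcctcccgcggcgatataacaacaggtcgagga

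TATAAA was present in the window of Krt8 alone among the 4, as a pair of overlapping matches on opposite strands that straddle the annotated start. The 30 bases around them are given with both matches in capitals.
Krt8, chr15:102004326-102004355, minus strand: ggcctcttctTTTATAAAgggccttcgctg
Over all 32851 windows of the same length, 13.6% held the TATAAA motif. The CCAAT motif was present in the Ermn window only, on the opposite strand with its first base 56 bases before the start, against 37.4% of all windows. GGGCGG (35.7% of windows) and TGANTCA (7.81%) had no match in the 4 windows. Sec14l3 and Krt18 held none of the 4 motifs. In the RefSeq gene table of the same build, Krt8 and Krt18 stand next to each other among protein-coding genes, and Sec14l3 stands next to its relative Sec14l4. That table lists 1 pseudogene named after Krt8, which has no entry in the deposited tables. Whether its reads entered the Krt8 values was not tested.

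A library was kept when 1000 or more genes had a value of 1 or more, which left 46, 48 and 25 cells in the Neurog1 sorts (uninjured, 5 days and 14 days), 29 of 89 engrafted and 42 of 50 at 14 days in the OMP sorts, and 68 and 70 in reference runs 1 and 2. Median depths were 501795 to 1347605 recovered fragments per group, with 427548 and 692475 in reference runs 1 and 2. The amplified reads carry no molecular identifiers, so fragments are not independent molecules. Omp, the olfactory marker protein gene behind the second reporter, was found in 75.9% of engrafted cells and 97.6% of OMP cells at 14 days. Among the reference libraries, 9 of run 1 held more than 10000 genes and resembled each other (all 36 pairs with a Pearson r above 0.8 over log2(CPM + 1)) more than any other library (r of 0.633 at most). A further 3 pairs of libraries, 2 in the Neurog1 sort at 5 days and 1 in run 1 of the reference, were nearly identical (r of 0.943 to 0.994, against 0.652 at most for all other pairs). The 9 libraries stood in 3 sets with like Omp. It was at 9831 to 10092 CPM in q281 to q283, 5080 to 5229 in q284 to q286 and 3796 to 3878 in q287 to q289. Each of q287 to q289 held 12 of 12 sustentacular and 11 of 12 mature neuron markers. They also held 10 of 10 immature neuron, 6 of 6 horizontal basal and 7 of 7 microvillar markers. Each of the 9 counts as 1 cell below unless left out. Whether these or other libraries hold exactly 1 cell was not tested.

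A gene counted as found in a cell from 10 CPM upwards. Sec14l3 was found in 92.03% of the reference cells (86.2 to 95.95), that is in all but 11 of the 68 and 70 cells of the 2 runs. Its CPM had a lowest value of 0, a median of 2750.3 and a highest value of 56569, and 80 cells had 1000 or more. Krt18 was found in 90 cells, or 65.2% (56.6 to 73.1), with a lowest CPM of 0, a median of 116.3 and a highest of 5044. Ermn and Krt8 were each found in 71 cells, or 51.4% (42.8 to 60.04). Ermn had a median CPM of 20.5 and a highest of 5771, and Krt8 a median of 20.7 and a highest of 2319, both with a lowest of 0. All 4 genes thus ranged from 0 to over 2000 CPM within the unsorted tissue. Sec14l3 was at 0 in 2 cells, Krt18 in 41, Ermn in 53 and Krt8 in 57. Between 1 and 10 CPM lay 9 cells for Sec14l3, 12 for Ermn, 9 for Krt8 and 6 for Krt18. Between 10 and 50 CPM lay 14, 7, 13 and 12 in the same order. The shares depended on the limit: that of Sec14l3 was 98.6% with a limit of 1 CPM and 81.9% with 50 CPM.

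The runs of the reference differed. Sec14l3 was found in 57 of 68 cells of run 1 (83.8%, 72.9 to 91.6) and in 70 of 70 of run 2 (94.9 to 100), where its lowest CPM was 14.8. The median CPM of Sec14l3 was 523.3 in run 1 and 3939 in run 2, while the mean was 10349 in run 1 and 7863 in run 2. The lower and upper quartiles of Sec14l3 were 24.5 and 16954 CPM in run 1 and 827.3 and 10773 CPM in run 2, so its levels were more spread in run 1. Ermn was found in 29 of 68 cells of run 1 (42.6%) and in 42 of 70 of run 2 (60%), with a mean CPM of 220.5 and 581.9. Krt18 was found in 37 of 68 cells of run 1 (54.4%) and 53 of 70 of run 2 (75.7%), and its means were 531.5 and 533.5 CPM. Krt8 was found in 33 of 68 (48.5%) and 38 of 70 (54.3%), with means of 228.3 and 193.03 CPM. Run 2 was also deeper. With 50000 fragments drawn from each cell the shares in runs 1 and 2 were 82.4% and 98.6% for Sec14l3, 42.6% and 62.9% for Ermn, 45.6% and 51.4% for Krt8, and 55.9% and 74.3% for Krt18. Run 2 thus had the higher share for each gene at equal numbers of fragments, which are not independent molecules. The intervals of the 2 runs overlapped for Ermn, Krt8 and Krt18 and not for Sec14l3. The part of depth in the difference between the runs was not tested.

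The libraries that stand apart moved the shares of the whole reference little. Without the 9 libraries of more than 10000 genes these were 91.5% for Sec14l3, 50.4% for Ermn, 48.1% for Krt8 and 62.8% for Krt18. In run 1, which holds all 9, they were 81.4%, 38.98%, 40.7% and 47.5% in the same order. Those 9 libraries all held Sec14l3 (164.6 to 2321 CPM), Krt8 (19.7 to 484 CPM) and Krt18 (29.4 to 694 CPM), and 6 of 9 held Ermn at 10 CPM or more. The nearly identical pair of reference libraries, q340 and q341, had Sec14l3 at 28.4 and 17.9 CPM and Krt8 at 56.8 and 75.95 CPM, but Krt18 at 1633 CPM in library q340 and at 0 in library q341.

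**Figure D1:**
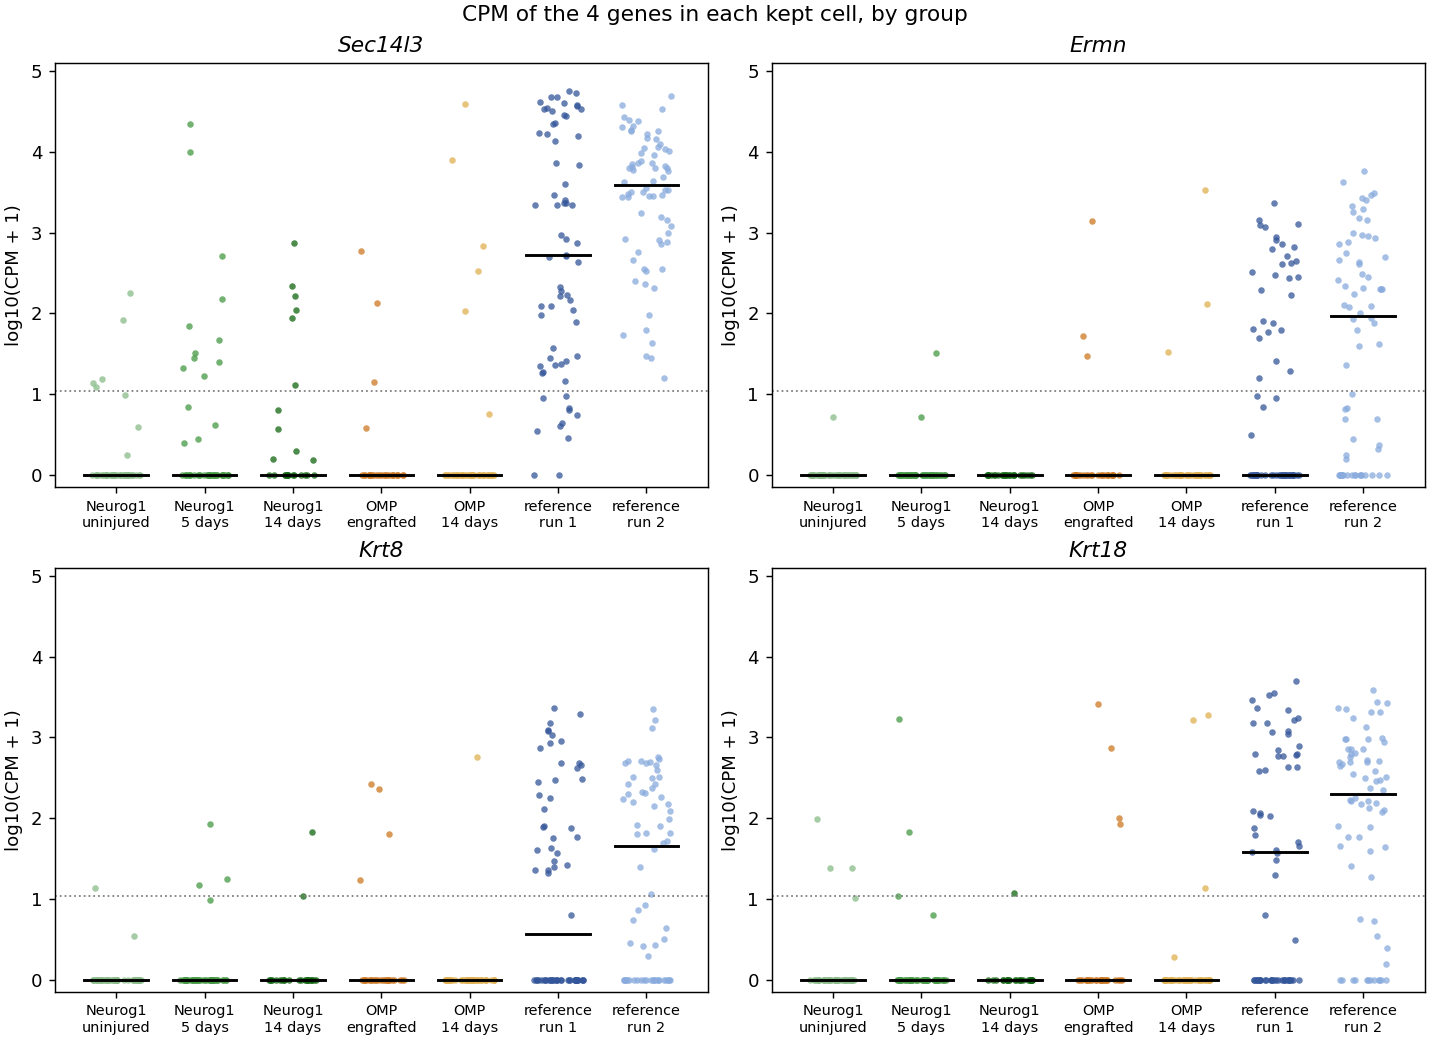
CPM of each gene in every kept cell, as log10(CPM + 1), by group; each point is 1 cell, the black bar is the median over cells and the dotted line is a CPM of 10. In all sorts the median of each gene is 0, and single cells stand high, while in the reference the Sec14l3 medians are 523.3 CPM in run 1 and 3939 CPM in run 2.

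Levels were compared between the genes per transcript length, with the deposited FPKM values. By mean FPKM over the reference cells Sec14l3 was at 2375.0 and ranked 14th of the 20623 genes above 0, Krt18 was at 452.04, Krt8 at 131.2 (rank 575) and Ermn at 118.3 (rank 655). Within the 53 reference cells that held all 4 genes, Sec14l3 was higher in FPKM than Krt18 in 49, than Krt8 in 52 and than Ermn in 53. Krt18 was higher than its partner Krt8 in 47 of the 53, with a median ratio of 3.45 (quartiles 1.82 and 7.76). Krt18 was higher than Ermn in 45. Ermn was higher than Krt8 in 23 of 53, so these neighbours in the order did not differ beyond the spread between cells. In the 47 cells left without the libraries of more than 10000 genes, Sec14l3 was higher than Krt18 in 43 and Krt18 higher than Krt8 in 41. The median FPKM of Ermn and Krt8 was 121.1 and 128.2 in the 53 cells and 130.9 and 128.2 in the 47, so their order by median turned.

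The 4 genes were found together in 53 reference cells, or 38.4% (30.3 to 47.1): 25 of 68 in run 1 and 28 of 70 in run 2. No member was found in 9 cells, all of run 1. Sec14l3 was the only member in 31 cells, 20 of run 1 and 11 of run 2. In 2 reference cells another member was found with Sec14l3 under 10 CPM. Library q299 of run 1 had 5.74 CPM of Sec14l3 beside 2903 CPM of Krt18, 1216 of Krt8 and 275.4 of Ermn, and library q364 of run 1 had 1.87 CPM of Sec14l3 beside 78.6 of Krt8. Both keratins were found in 67 reference cells, Krt18 without Krt8 in 23, Krt8 without Krt18 in 4 and neither in 44. Without the libraries of more than 10000 genes, all 4 were found in 47 cells (36.4%).

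**Figure D2:**
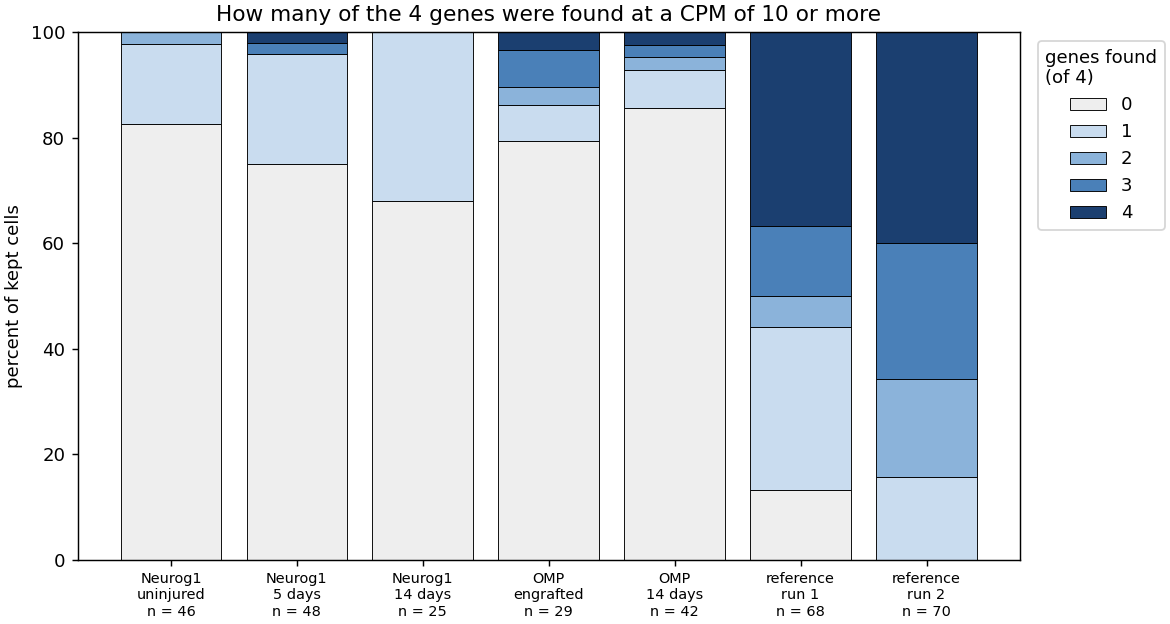
Percent of kept cells in which 0, 1, 2, 3 or 4 of the genes reached a CPM of 10, by group, with the number of cells under each bar. All 4 were found in 36.8% of run 1 and 40% of run 2 of the reference, and in at most 1 cell of any sort.

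Across the reference cells, which share the same libraries, depths and column totals, the keratins ranked most alike (Spearman rho 0.74), then Sec14l3 and Ermn (0.71), Ermn and Krt18 (0.68), Sec14l3 and Krt18 (0.64), Ermn and Krt8 (0.53), and Sec14l3 and Krt8 (0.51). Within runs this order did not hold throughout. The keratin pair had a rho of 0.79 in run 1 and 0.65 in run 2, Ermn with Krt18 0.79 and 0.56, Sec14l3 with Ermn 0.73 and 0.63, and Ermn with Krt8 0.70 and 0.32. In run 1 Ermn with Krt18 stood at or above the keratin pair. The summed CPM of 12 other sustentacular markers ranked with Sec14l3 at 0.77, with Krt18 and Ermn at 0.68 each and with Krt8 at 0.60.

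Among 2211 genes with a mean of 50 CPM or more and a CPM of 10 or more in at least 30% of these cells, the gene that ranked most like Sec14l3 was Ugt2a1 (0.82), an olfactory UDP-glucuronosyltransferase, followed by the carbonyl reductase gene Cbr2 (0.77), the olfactory cytochrome P450 gene Cyp2g1 (0.75), Galm (0.72) and Pon1 (0.72). Ermn ranked most like Ugt2a1 (0.75), Cbr2 (0.73), the alarmin gene Il33 (0.71), Cyp2g1 (0.70) and the peroxiredoxin gene Prdx6 (0.69). Krt18 ranked most like Cyp1a2 (0.73), Ugt2a1 and Cbr2 (0.71 each), the syndecan gene Sdc4 and Cyp2g1 (0.69 each). Krt8 ranked most like Cyp2a4, S100a1 and Sdc4 (0.65 each), Prdx6 and Cyb5r3 (0.64 each). Cyp2a4 has the near-identical copy Cyp2a5, and their values are uncertain because reads may be split between them. These ranks are from both runs together and differed within runs. The 5 genes named for Sec14l3 ranked between 1 and 21 in run 1 and between 1 and 9 in run 2, and Cyp1a2 ranked first for Krt18 in both. Of the genes named for Ermn, Ugt2a1 was at rank 36 in run 1 and 1 in run 2, and Cbr2 at 1 and 22. Of those for Krt8, Cyp2a4 was at rank 62 in run 1 and 2 in run 2, S100a1 at 4 and 42, and Sdc4 at 3 and 51. None of the 5 was among the first 20 in both runs. The median rho of a ranked gene was 0.01 with Sec14l3, 0.07 with Ermn, 0.12 with Krt8 and 0.09 with Krt18.

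The members were then read in cells that also carry Omp, the marker of mature sensory neurons. Omp was found in 59 reference cells of run 1 and 65 of run 2. Among these Omp-carrying cells Sec14l3 was found in 91.9% (85.7 to 96.1), Krt18 in 78, or 62.9% (53.8 to 71.4), Ermn in 63, or 50.8% (41.7 to 59.9), and Krt8 in 62, or 50% (40.9 to 59.1). In the 14 reference cells with Omp under 10 CPM the counts were 13, 12, 8 and 9 in the same order, or 92.9% (66.1 to 99.8), 85.7% (57.2 to 98.2), 57.1% (28.9 to 82.3) and 64.3% (35.1 to 87.2). The intervals of the cells with and without Omp overlapped for each gene. Median CPM in Omp-carrying against other reference cells was 2624 against 2929 for Sec14l3, 111.03 against 416.5 for Krt18, 16.7 against 231.2 for Ermn and 8.98 against 32.8 for Krt8. Both sets had like depths, with medians of 492114 and 523875 fragments. Of the 53 cells with all 4 members, 47 carried Omp, and 24 had it at 1000 CPM or more (10 of run 1 and 14 of run 2). Of those 10 cells of run 1, 6 were libraries of more than 10000 genes, which left 4 in run 1 and 18 in all.

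The level of Omp ordered the cells only in part. In bands of Omp under 10, from 10 to 100, from 100 to 1000 and at 1000 CPM or more, with 14, 12, 30 and 82 cells, the median CPM of Sec14l3 was 2929, 1207, 12798 and 1376. Krt18 had medians of 416.5, 360.1, 537.4 and 41.6 over the same bands, Ermn 231.2, 30.5, 421.6 and 3.86, and Krt8 32.8, 52.3, 191.1 and 0. With the runs together all 4 medians were highest in the band from 100 to 1000 CPM of Omp, where the shares of cells were 93.3% for Sec14l3, 80% for Krt18, 73.3% for Ermn and 70% for Krt8, against 90.2%, 56.1%, 42.7% and 40.2% at 1000 CPM or more. Within runs the medians of Sec14l3, Ermn and Krt8 were also highest in that band, at 32191, 521.7 and 801.04 CPM in run 1 and 6272, 316.7 and 118.05 CPM in run 2. Krt18 was not: its highest median was 1111 CPM from 10 to 100 CPM of Omp in run 1 (6 cells, against 964.9 in 10 cells of the next band) and 442.97 CPM under 10 CPM of Omp in run 2 (5 cells, against 334.2 in 20 cells). The band from 100 to 1000 CPM also had the deepest cells, with a median of 829430 fragments, against 446364 in the highest band, and the part of depth there was not tested.

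The highest Omp band differed between the runs. Without the libraries of more than 10000 genes its shares were 89.04%, 50.7%, 39.7% and 32.9% in the same order. Its Sec14l3 median was 169.2 CPM in 43 cells of run 1 and 5967 CPM in 39 cells of run 2. Krt18 was found in 17 of the 43 (39.5%) and in 29 of the 39 (74.4%), Ermn in 12 (27.9%) and 23 (58.97%), and Krt8 in 13 (30.2%) and 20 (51.3%). All 9 libraries of more than 10000 genes were among the 43. Without them Krt18 was found in 8 of 34 cells of run 1 (23.5%, 10.7 to 41.2), Ermn in 6 (17.6%, 6.76 to 34.5), Krt8 in 4 (11.8%, 3.30 to 27.5) and Sec14l3 in 26 (76.5%, 58.8 to 89.3), with a Sec14l3 median of 115.9 CPM. Those 9 libraries thus gave most of the Krt8 and Krt18 finds at high Omp in run 1. The rank correlation of Omp over the cells of run 1 was -0.37 with Sec14l3, -0.46 with Ermn, -0.53 with Krt8 and -0.49 with Krt18 (-0.38, -0.50, -0.65 and -0.56 without the 9 libraries). In run 2 the same values were 0.14, -0.07, -0.18 and -0.19.

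**Figure D3:**
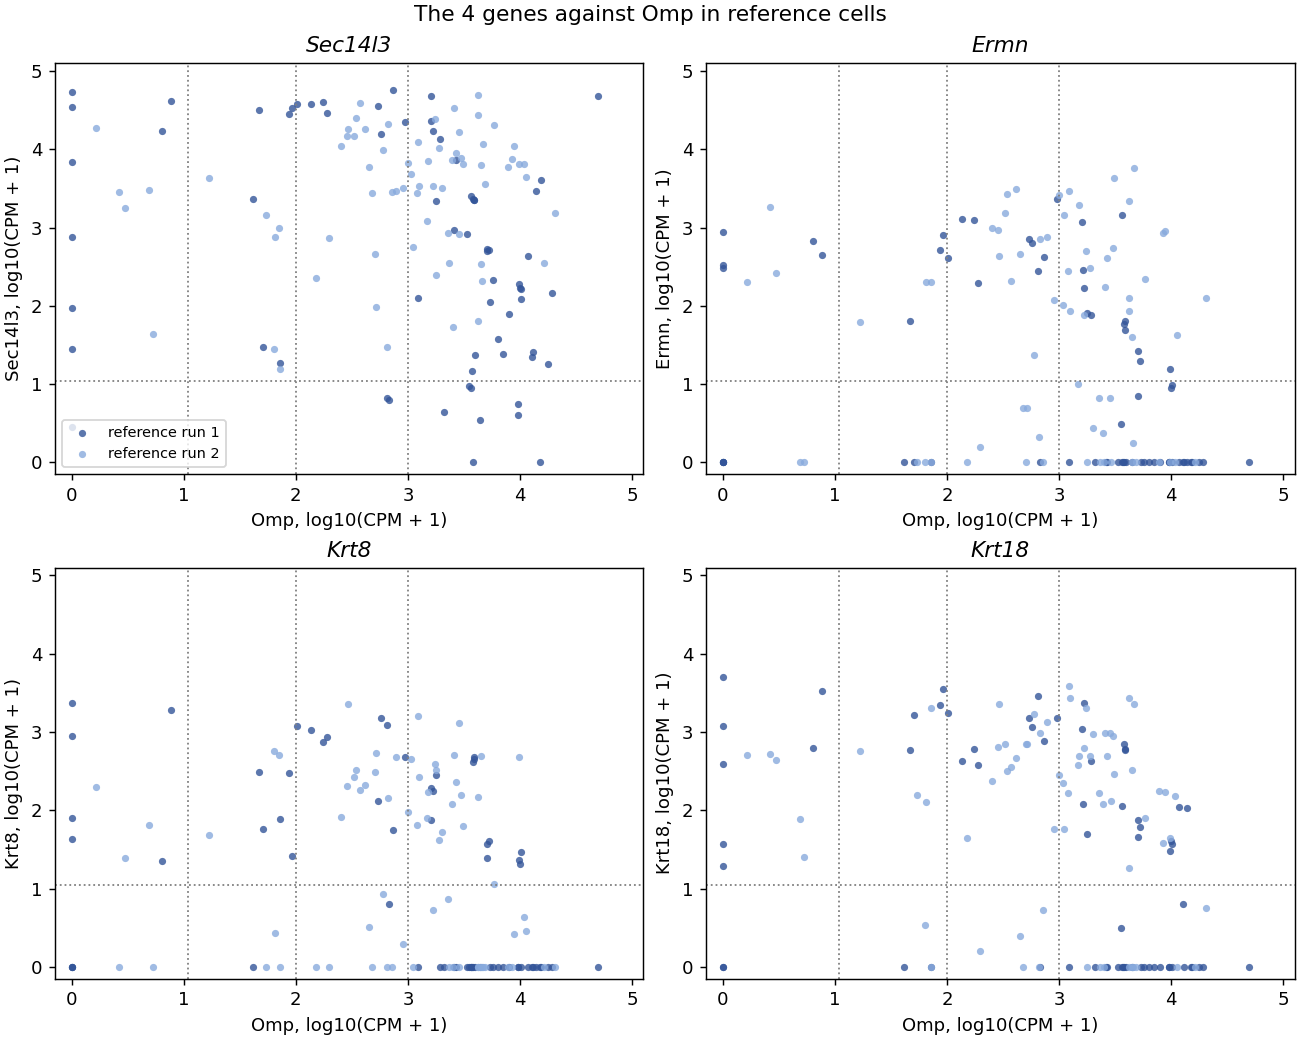
Each gene against Omp in the reference cells, both as log10(CPM + 1), in dark blue for run 1 and light blue for run 2; dotted lines mark Omp at 10, 100 and 1000 CPM and the gene at 10 CPM. Most cells with Omp at 1000 CPM or more also have Sec14l3, at a median of 169.2 CPM in run 1 and 5967 CPM in run 2.

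Because Omp was found in most reference cells, these were also ranked by summed marker CPM, with the members left out, and split into 4 bins of 34 or 35 cells. In the bin with the lowest sum of the 12 other sustentacular markers (35 cells, median sum 1899 CPM), Sec14l3 was still found in 30, with a median of 205.2 CPM. Krt18 was found in 12 of these 35, Krt8 in 9 and Ermn in 6. Of these 35 cells, 6 were libraries of more than 10000 genes, and without them Sec14l3 was found in 24 of 29, Krt18 in 6, Krt8 in 3 and Ermn in 3. In bin 2 the counts of Sec14l3, Krt18, Krt8 and Ermn were 30, 14, 7 and 8 of 35. In bin 3 (34 cells) Sec14l3 was found in 33, Krt18 in 31, Krt8 in 24 and Ermn in 26. In the highest bin (34 cells, median sum 63309 CPM) they were found in 34, 33, 31 and 31 in the same order, with medians of 25649, 744.6, 198.7 and 472.2 CPM. Sec14l3 was thus present over the whole range, and the other 3 were mostly found in the upper 2 bins. The highest bin had Omp in 28 of 34 cells, at a median of 474.2 CPM.

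By the sum of 12 mature neuron markers, Krt18, Krt8 and Ermn were found least often in the highest bin and most often in bin 2. In the highest bin (34 cells, 30 of them of run 1, median Omp of 9688 CPM) Sec14l3 was found in 28 at a median of 166.9 CPM, while Krt18 was found in 9, Krt8 in 6 and Ermn in 5. This bin also held 6 of the libraries of more than 10000 genes, and without them Sec14l3 was found in 22 of 28, Krt18 in 3, Ermn in 2 and Krt8 in 0, which allows a share of up to 10.7%. All the Krt8 finds of this bin thus came from those 6 libraries. In the bin with the fewest mature neuron markers (35 cells) Sec14l3 was found in 34, Krt18 in 28, Krt8 in 24 and Ermn in 22. In bin 2 (35 cells) the counts were 34, 30, 27 and 26 in the same order, and in bin 3 (34 cells) 31, 23, 14 and 18. The rank correlation with this sum in run 1 was -0.43 for Sec14l3, -0.58 for Krt18, -0.61 for Krt8 and -0.58 for Ermn. In run 2 the same values were -0.01, -0.21, -0.24 and -0.09. Whether the Sec14l3 signal of the cells in these bins came from the cells themselves or from RNA of other cells was not tested.

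**Figure D4:**
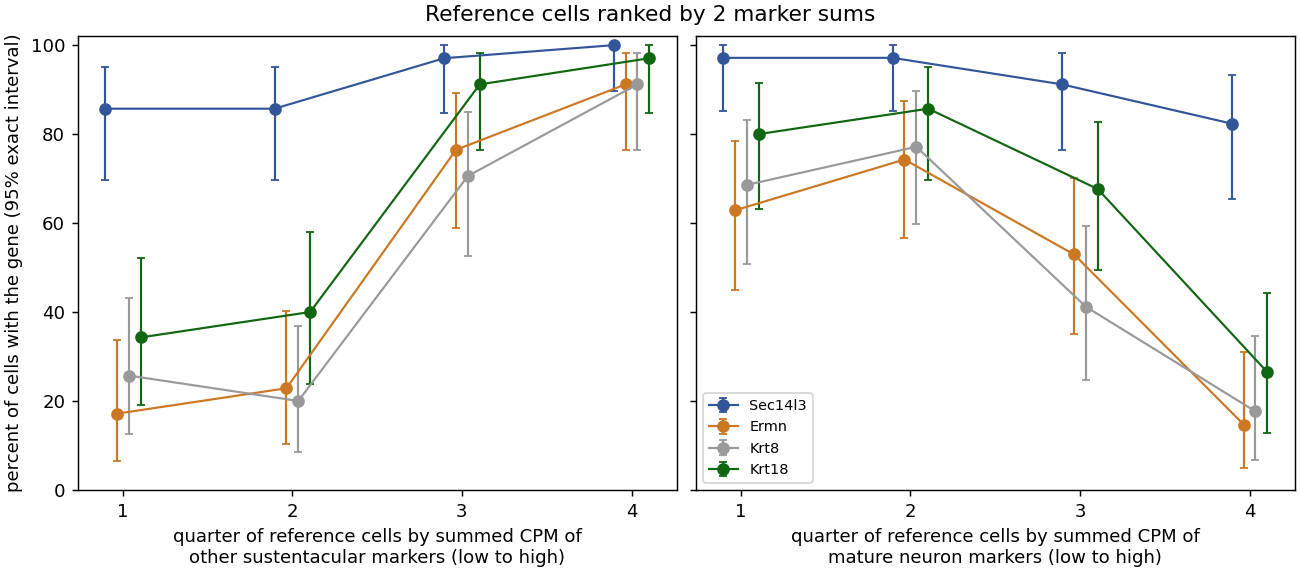
Percent of reference cells with each gene at 10 CPM or more, in 4 bins ranked by the summed CPM of 12 other sustentacular markers (left) or 12 mature neuron markers (right); points are shares and bars exact 95% intervals over cells. With all libraries Sec14l3 stays above 80% in every bin. In the 34 cells of the most neuronal bin, Sec14l3, Ermn, Krt8 and Krt18 were found in 28, 5, 6 and 9. Without libraries of more than 10000 genes they were found in 22, 2, 0 and 3 of 28.

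Sorted cells carried the 4 genes far less often than the reference. In the uninjured Neurog1 sort, Sec14l3 was found in 5 of 46 cells (10.9%, 3.62 to 23.6), Krt18 in 3 (6.52%, 1.37 to 17.9), Krt8 in 1 (2.17%, 0.055 to 11.5) and Ermn in 0, which allows a share of up to 6.52%. All 4 medians were 0, and the highest values were 179.6, 96.8, 12.6 and 4.16 CPM in the same order. The mean CPM in uninjured Neurog1 cells and in reference cells was 6.80 and 9088 for Sec14l3, 0.090 and 403.8 for Ermn, 0.327 and 210.4 for Krt8, and 3.30 and 532.5 for Krt18. The log2 ratios of mean CPM + 1 were -10.19 for Sec14l3, -8.54 for Ermn, -7.32 for Krt8 and -6.95 for Krt18. All 4 were at least 2-fold lower, where 32.6% of the 11061 genes with a mean of 5 CPM or more in either group were lower by that much and 22.4% higher, with a median log2 ratio of -0.16. Without the highest uninjured library the ratio was -11.16 for Sec14l3 (q46) and -7.91 for Krt18 (q18). The ranges overlapped at the low end, since reference cells reached 0 for each gene.

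After bulbectomy the members in the Neurog1 sorts changed through a few cells. Sec14l3 was found in 5 of 46 cells (10.9%) without injury, in 11 of 48 (22.9%, 12.03 to 37.3) at 5 days and in 6 of 25 (24%, 9.36 to 45.1) at 14 days, with intervals that overlap. Its median was 0 at each time and its highest values were 179.6, 21881 and 746.6 CPM. The mean CPM was 6.80 without injury, 680.6 at 5 days and 53.7 at 14 days. The log2 ratio to the uninjured sort was 6.45 at 5 days, where 20.9% of 10054 genes were 2-fold or more higher, and 2.81 at 14 days, where 22% of 9992 genes were (26.3% and 29.9% were lower by as much). Of the Sec14l3 signal at 5 days, 66.98% came from library q78 alone, and without libraries q78 and q119 the log2 ratio was 1.42. At 14 days the highest library, q109, held 746.6 CPM, and without it the ratio was 1.73.

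Libraries q78 and q119 of the 5 day sort stood apart in their other genes as well. Library q78 had 21881 CPM of Sec14l3, 1688 of Krt18, 82.9 of Krt8 and 31.8 of Ermn, with Omp and Neurog1 at 0. It held 8 of the 12 other sustentacular markers, at a summed 53655 CPM, against a median sum of 1131 CPM in its sort. Library q119 had 9874 CPM of Sec14l3, 66.4 of Krt18, 16.8 of Krt8 and 4.20 of Ermn, also with Omp and Neurog1 at 0, and held 10 of the 12 markers at 37526 CPM. Among the other 9 cells of the sort with Sec14l3, Neurog1 was at 0 in 5. Those 9 had no other member and 15.9 to 518.8 CPM of Sec14l3.

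Omp was found in 27 cells of the uninjured Neurog1 sort, and these held Sec14l3 in 3, Krt18 in 2, Krt8 in 1 and Ermn in 0. At 5 days 17 cells carried Omp, of which 4 held Sec14l3 and none the other 3 genes. At 14 days 8 cells carried Omp, and Sec14l3 was found in 4 of them (50%, 15.7 to 84.3) and the other 3 genes in none. The cells with very high Sec14l3 at 5 days were thus outside the Omp-carrying ones, where its highest value was 148.3 CPM.

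Krt18 at 5 days followed the same library. It was found in 2 of 48 cells, those 2 libraries, against 3 of 46 without injury. The mean CPM was 36.9 at 5 days and 3.30 in uninjured cells, a log2 ratio of 3.14. Without library q78 the ratio was -0.65, so the higher mean rested on that cell. At 14 days Krt18 was found in 1 of 25 cells, at 10.7 CPM, and Krt8 in 1, at 65.7 CPM in a cell with 346.5 CPM of Neurog1 and 0.517 of Sec14l3. Ermn was at 0 in all 25 cells, which allows a share of up to 12%. Ermn and Krt8 had means under 5 CPM in all 3 Neurog1 sorts, and no ratio was formed.

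The OMP sort at 14 days held Sec14l3 in 5 of 42 cells (11.9%, 3.98 to 25.6), Ermn in 3 (7.14%, 1.498 to 19.5), Krt18 in 3 (7.14%) and Krt8 in 1 (2.38%, 0.060 to 12.6). All medians were 0 and the highest values were 39088, 3345, 1862 and 562.7 CPM in that order. The mean CPM in OMP cells at 14 days and in reference cells was 1148 and 9088 for Sec14l3, 83.5 and 403.8 for Ermn, 13.4 and 210.4 for Krt8, and 83.3 and 532.5 for Krt18. The log2 ratios were -2.98, -2.26, -3.88 and -2.66 in this order of genes, all at least 2-fold lower, as were 33.9% of 10818 genes (18.8% were higher). Without libraries q235 and q240 the ratios were -8.28, -6.57, -7.72 and -8.64 in the same order.

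These 2 libraries differed from each other. Library q235 had 39088 CPM of Sec14l3, 1624 of Krt18, 32.6 of Ermn and 0 of Krt8, with Omp at 0 and 7 of the 12 other sustentacular markers. It was the only one of the 42 with Omp under 10 CPM. Library q240 had 8005 CPM of Sec14l3, 3345 of Ermn, 1862 of Krt18 and 562.7 of Krt8, beside 3870 CPM of Omp, 9 of the 12 sustentacular markers and 8 of the 12 mature neuron markers at a summed 18403 CPM. It was the deepest kept library of the series, with 2185812 fragments, and held 1897 genes. Whether it holds 1 cell or 2 was not tested. Library q229 had 130.4 CPM of Ermn and none of the other 3, beside 8 mature neuron markers at a summed 39252 CPM.

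Among the Omp-carrying cells of this sort, the members were rare. Sec14l3 was found in 4 of 41 such cells (9.76%, 2.72 to 23.1) against 91.9% of Omp-carrying reference cells. The median depths were 1337990 fragments in the sort and 492114 in the reference. Krt18 and Ermn were found in 2 of the 41 each (4.88%, 0.596 to 16.5), against 62.9% and 50.8% of the reference cells, and Krt8 in 1 (2.44%, 0.062 to 12.9), against 50%. These intervals cover the counting of cells only. With all Omp-carrying reference cells together, they did not overlap for any of the 4 genes. A narrower set was run 1 cells with Omp at 1000 CPM or more, without libraries of more than 10000 genes. Its intervals for Ermn (17.6%, 6.76 to 34.5), Krt8 (11.8%, 3.30 to 27.5) and Krt18 (23.5%, 10.7 to 41.2) overlapped those of the sort. Its Sec14l3 interval (76.5%, 58.8 to 89.3) did not, nor did any of the 4 genes in run 2 at that Omp level. At greater depth, the sorted neurons had lower shares than the pooled Omp-carrying reference cells, which also differed in strain and injury.

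In engrafted OMP cells the members were found at like shares. Krt18 and Krt8 were each found in 4 of 29 cells (13.8%, 3.89 to 31.7), and Sec14l3 and Ermn in 3 each (10.3%, 2.19 to 27.4), with intervals that overlap almost wholly. The mean CPM in engrafted cells and in OMP cells at 14 days was 25.8 and 1148 for Sec14l3, 50.3 and 83.5 for Ermn, 19.6 and 13.4 for Krt8, and 120.2 and 83.3 for Krt18. The log2 ratio was -5.42 for Sec14l3, past 2-fold and lower as were 35% of 9623 genes (21.7% were higher), and -0.72, 0.52 and 0.52 for Ermn, Krt8 and Krt18. With no filter on genes per library, which adds 60 engrafted libraries and 8 of the 14 day sort, the ratios were -1.36 for Sec14l3, -2.32 for Ermn, -0.73 for Krt8 and 0.31 for Krt18, so Krt8 changed sign. Without libraries q235 and q240 of the 14 day sort the Sec14l3 ratio was -0.12 and the others were 3.59, 4.37 and 6.50. The low Sec14l3 ratio thus rested on those 2 cells, the Ermn ratio changed sign, and the Krt8 and Krt18 ratios kept theirs. Without the engrafted library of the highest value (q195 for Sec14l3, q144 for Ermn and Krt18, q201 for Krt8) the ratios were -7.49 for Sec14l3, -4.45 for Ermn, -0.28 for Krt8 and -1.33 for Krt18. Krt8 and Krt18 changed sign there. Among 22 Omp-carrying engrafted cells, Sec14l3 was found in 2 and each other member in 1.

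The 4 engrafted cells with keratins held both of the pair, with Sec14l3 at 0 in 3 of them. Library q144 had 2576.5 CPM of Krt18, 1379 of Ermn and 225.4 of Krt8 with Sec14l3 at 0, beside 5 of 12 other sustentacular markers and 2 of 5 Bowman gland markers. Library q160 had 100.0 CPM of Krt18, 62.1 of Krt8 and 51.3 of Ermn with Sec14l3 at 0, beside 7 sustentacular and 2 Bowman gland markers. Library q201 had 726.2 CPM of Krt18, 265.98 of Krt8 and 28.7 of Ermn beside 135.6 CPM of Sec14l3 and 134.3 of Omp. This library also held 4 sustentacular and 2 Bowman gland markers, with Sox9 at 1142 CPM. Its mature neuron markers summed to 239.9 CPM. Library q200 had 84.5 CPM of Krt18 and 16.1 of Krt8 with Sec14l3 and Ermn at 0, beside 3 of 7 microvillar markers. Of the cells with Krt18 at 50 CPM or more, Sec14l3 was thus at 0 in 3 of 4 engrafted cells and under 10 CPM in 1 of 78 reference cells. No other sort had more than 2 such cells. The 1 in the uninjured Neurog1 sort (q18) also had Sec14l3 at 0. The 2 of the Neurog1 sort at 5 days and the 2 of the OMP sort at 14 days had 8005 CPM of Sec14l3 or more.

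**Figure D5:**
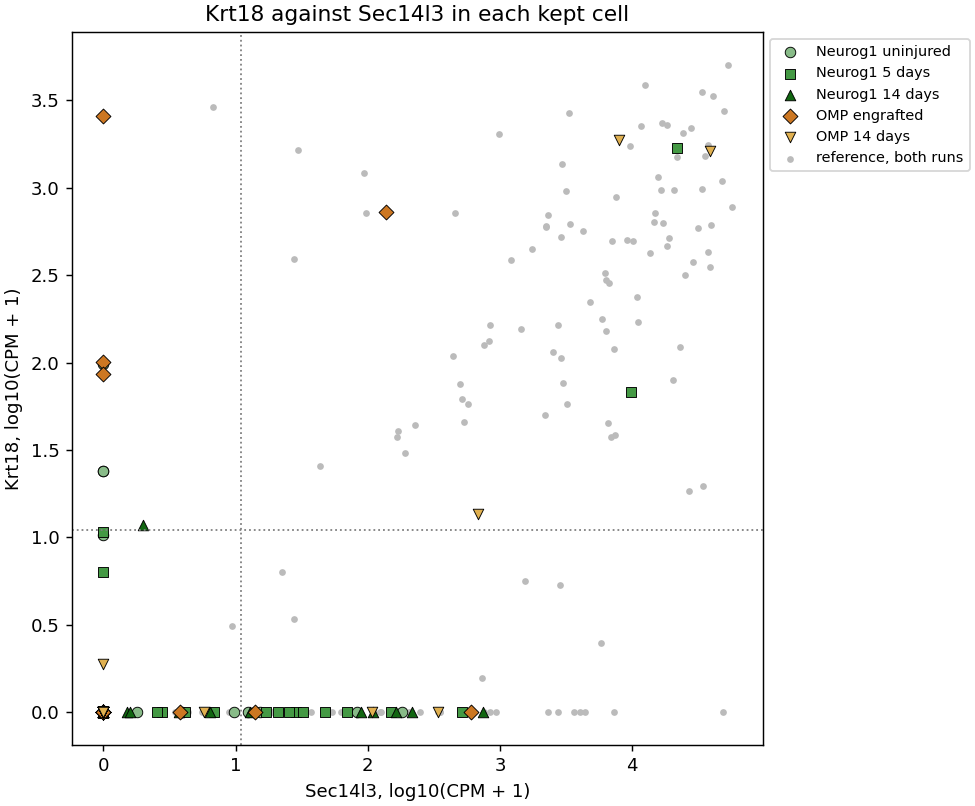
Krt18 against Sec14l3 in each kept cell, both as log10(CPM + 1), with sorted cells as coloured symbols and the reference cells in grey; dotted lines mark a CPM of 10. Of the engrafted cells (orange diamonds) with Krt18 at 50 CPM or more, 3 of 4 lie at 0 on the Sec14l3 axis, where 1 of 78 such reference cells is under 10 CPM.

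Keratins also occurred in cells with markers of microvillar cells, another cell type of the apical epithelium. After the values had been seen, the 12 kept cells with 3 or more of 7 microvillar markers at 10 CPM were listed: 1 in the uninjured Neurog1 sort, 1 engrafted and 10 in the reference, 4 of them libraries of more than 10000 genes. Krt18 was found in all 12 and Krt8 in 10, Sec14l3 in 10 and Ermn in 5. Over all reference cells the shares were 65.2%, 51.4%, 92.03% and 51.4% in the same order. The 4 libraries of more than 10000 genes all held Krt18, Krt8 and Sec14l3, and no count was made without them. Libraries q287 to q289 among them held 12 of the 12 other sustentacular markers, and q435 and q457 of run 2 held 10 each. The 2 sorted cells lacked Sec14l3 (0 CPM each) and had Krt18 at 96.8 CPM in the uninjured Neurog1 sort and 84.5 CPM in the engrafted cell. In the reference, library q372 of run 1 had 1207 CPM of Krt18 and 903.3 of Krt8 with 93.4 of Sec14l3 and 0 of Ermn, beside 1408 CPM of Foxi1 and 1573 of Cftr, both genes of ionocyte-like microvillar cells. Library q441 of run 2 had 711.9 CPM of Krt18 and 539.4 of Krt8 with 95.5 of Sec14l3 and 3.98 of Ermn, beside 725.1 CPM of Foxi1.

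The relatives of the 4 genes were less marked. Of 15 other keratin genes, 6 had a mean of 5 CPM or more in uninjured Neurog1 or reference cells. Of these, 4 were 2-fold or more lower in the Neurog1 cells and 1 higher (median log2 ratio -3.63, against -0.16 over all genes). Over all 11061 measured genes, 32.6% were lower by as much and 22.4% higher. Krt23 was the most frequent of the 15 in the reference, found in 39 cells (28.3%, mean 44.3 CPM) and in 0 of 46 uninjured Neurog1 cells. The basal cell keratin genes Krt5 and Krt14 were found in 10 and 8 reference cells, with means of 8.94 and 14.3 CPM. Krt10 ran the other way, with a mean of 13.9 CPM in uninjured Neurog1 cells and 4.51 CPM in reference cells. Of 9 genes of SEC14-like and related lipid-binding proteins, 6 were measured, with 2 lower and 1 higher (median 0.36), near the shares over all genes. Sec14l2 was found in 1 of 46 uninjured Neurog1 cells (mean 0.503 CPM) and in 60 reference cells (43.5%, mean 109.4 CPM). The neighbour gene of Sec14l3, Sec14l4, had a mean of 15.5 CPM in uninjured Neurog1 cells and 10.6 CPM in reference cells.

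Of 8 genes of the ezrin, radixin and moesin group and their partners, 6 were measured. In uninjured Neurog1 cells 2 were lower and 2 higher than in the reference (median log2 ratio -0.57). Over all measured genes 32.6% were lower and 22.4% higher, so the counts of these 6 genes stood near those shares. Ezr, the epithelial linker of membrane and actin, was found in 4 of 46 uninjured Neurog1 cells (mean 42.4 CPM) and in 70 reference cells (50.7%, mean 194.5 CPM). Of 15 junction and plaque genes, 14 were measured, 7 were lower and none higher (median -1.12). Cdh1, the epithelial cadherin gene, was found in 0 of 46 uninjured Neurog1 cells and in 62 reference cells (44.9%). Jup, a plaque protein gene of adherens junctions and desmosomes, was found in 39 of 46 uninjured Neurog1 cells (84.8%) and in 87 reference cells (63.04%), so not all epithelial adhesion genes were rare in the sort. Of 11 other intermediate filament genes, 4 were measured, with 1 lower and 1 higher, also near the shares over all genes.

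The other cell type lists were set beside the shares over all measured genes. Of these genes, 32.6% were 2-fold or more lower and 22.4% higher in uninjured Neurog1 cells than in the reference. In OMP cells at 14 days 33.9% were lower and 18.8% higher than in the reference. Of the 12 other sustentacular markers, all measured, 10 were 2-fold or more lower in uninjured Neurog1 cells than in the reference and none higher, with a median log2 ratio of -6.93. In OMP cells at 14 days 11 of the 12 were lower and 1 higher (median -3.48). The exception was Sult1d1, with a mean of 977.8 CPM in uninjured Neurog1 cells, 2377 CPM in OMP cells at 14 days and 1026 CPM in reference cells. It was found in 37 of 46, 40 of 42 and 86.2% of these cells, so its level differed more between the groups than its share of cells. The summed CPM of the list ran from 0 to 6187 in uninjured Neurog1 cells (median 596), from 0 to 49014 in OMP cells at 14 days (median 1882) and from 107.6 to 125835 in reference cells (median 7519), and no gene of the list was at 0 throughout the reference. The median number of the 12 found per cell was 1 in both of these sorts and 8 in the reference. Low sums in the sorts can thus rest on Sult1d1 alone. Its part in the lower bins of the reference was not tested. In uninjured Neurog1 cells against the reference, markers of horizontal basal cells were lower in 3 of 3 measured genes, Bowman gland in 3 of 3, microvillar cells in 4 of 6, respiratory ciliated cells in 3 of 5, immune cells in 4 of 4, endothelial cells or pericytes in 1 of 1 and fibroblasts in 1 of 1. Markers of ensheathing glia and oligodendrocytes were lower in 1 of 4 and higher in 2, and mature neuron markers were lower in 8 of 11. Precursor markers were higher in 5 of 6 and immature neuron markers in 8 of 10. In OMP cells at 14 days against the reference, horizontal basal markers were lower in 3 of 3, Bowman gland in 3 of 3 (median log2 ratio -5.25), microvillar markers in 5 of 6 with 1 higher (-4.21), and immune markers in 4 of 4.

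The lists were also counted in the comparisons between sorts. At 5 days against uninjured Neurog1 cells, 9 of the 12 other sustentacular markers were 2-fold or more higher and 2 lower (median log2 ratio 3.98). Of all measured genes, 20.9% were higher and 26.3% lower. Libraries q78 and q119 held 53655 and 37526 CPM of that list, where the upper quartile of the sort was 2657 CPM. The median cell held 1 of the 12 in both sorts, and the counts were not recomputed without these 2 libraries. Of the mature neuron markers 8 of 11 were lower (-1.48), and both measured markers of Bowman gland and both of microvillar cells were lower. At 14 days 3 of 8 measured sustentacular markers were higher and 2 lower (0.40), and 8 of 11 mature neuron markers were lower (-1.46). Of all measured genes, 22% were higher and 29.9% lower in that comparison. In engrafted cells against OMP cells at 14 days, 21.7% of all measured genes were higher and 35% lower. Bowman gland markers were higher there in 3 of 3 (5.24) and microvillar markers in 3 of 4 with 1 lower (3.54). Of the 12 sustentacular markers 6 were higher and 4 lower (0.42), and of 10 immature neuron markers 5 were lower and 1 higher (-1.08). The summed CPM of the Bowman gland list reached 13063 in engrafted cells and 19.2 in OMP cells at 14 days, with medians of 0 in both. The part of these lists in the differences of the 4 genes was not tested.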

How the data were processed

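Each of the 469 samples is 1 C1 library, labelled as a single cell, and 328 were kept, 138 of them in the reference. The deposited files are a pair of gene-by-library tables. One holds a signal whose column totals the authors made almost equal. The other holds the authors' FPKM. The submitters' processing notes list Cufflinks 2.2.1, Cuffnorm, STAR 2.5.2a, FastQC and mm9. Their roles and the annotation are not given in the sources used here. Of the nonzero deposited signal values 99.4% are not whole, so no count test was used.

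Entries whose symbols a spreadsheet had turned into calendar dates were dropped (27 of 23308, with 0.418% of all signal). Signal was expressed as CPM. Most values of a cell were whole multiples of a smallest step (tolerance 0.02, median 98.5% of a library's lower values), which was taken as 1 fragment to recover depth. At the median depths of the groups 1 fragment stood for 0.742 to 1.99 CPM. No doublet caller was run. The step search, the ratios and the nearest-gene ranking were tested on simulated data.

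The detection limit was 10 CPM, and 0 of n cells allows up to 3 divided by n. Ratios are log2 of mean CPM + 1 over cells, which understates low genes, for genes with a mean of 5 CPM or more in either group. The 5 comparisons share control groups. Named genes are the 4 members, genes of 17 lists, and per member the 5 genes with the highest Spearman rho in reference cells (2211 ranked, leaving out Olfr, Gm, Rik and mitochondrial names). The members, lists and comparisons were chosen with earlier results of these data known. Dnah5 has no entry in the tables. Alternatives changed the detection limit, library filter, pseudocount, table, reference run and single libraries. Promoter sequences are RefSeq's (GRCm38.p6), and no coordinates were taken across builds. Python 3.11.15 with pandas 2.3.3, numpy 2.4.6, scipy 1.17.1 and matplotlib 3.10.9 was used.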

Additional observations from a re-analysis of the deposited data

Results flagged for a closer look

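The 4 genes were also present in the 54 reference libraries left out for having fewer than 1000 genes, which entered the shares and ratios only where the filter on genes per library was dropped. Sec14l3 reached 10 CPM in 85.2% of these libraries, Ermn in 25.9%, Krt8 in 24.1% and Krt18 in 33.3%. A count of 0 would allow a share of up to 5.56%. The median depth of these libraries was 136765 fragments. The highest values were 68898 CPM of Sec14l3, 15367 of Ermn, 5859 of Krt8 and 4938 of Krt18. Of the 60 engrafted libraries left out in the same way, 7 held Sec14l3 (11.7%, 4.82 to 22.6), up to 27830 CPM, where a count of 0 would allow up to 5%. Krt18 was found in 1 of them, at 6957 CPM, and Ermn and Krt8 in 0. Their median depth was 5268 fragments.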

How the results depend on the processing

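Shares were recomputed for reference cells and Omp-carrying reference cells only, not for the sorts, under other detection limits, library filters, single runs, thinning and like libraries counted once. Ratios were recomputed under another pseudocount, the FPKM table, other library filters, single runs and left-out libraries. Of these values 70 moved by more than their interval or margin, 8 changed sign and the rest moved by less. No paired analysis was possible because the labels number each library once and the results come from no test. Leaving out the highest library of each gene, libraries q235 and q240, the nearly identical libraries, or, within run 1, Omp bands and marker bins, the libraries of more than 10000 genes was chosen after seeing the data. The cause of each move was not tested unless the alternative itself removes the cells concerned.

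Share of reference cells. With a limit of 1 CPM Sec14l3 was in 98.6% and Ermn in 60.1%, and with 50 CPM Sec14l3 was in 81.9%, Krt8 in 42.03% and Krt18 in 56.5%. In run 1 alone Sec14l3 was in 83.8%, Ermn in 42.6% and Krt18 in 54.4%, and in run 2 alone Sec14l3 was in 100% and Krt18 in 75.7%. In libraries of 2000 or more genes Krt8 was in 61.5% and Krt18 in 73.6%, and with no library filter Krt18 was in 56.2%.

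Share of Omp-carrying reference cells. With 1 CPM Sec14l3 was in 98.5% and Ermn in 60.8%, and with 50 CPM Sec14l3 was in 82.5%. In run 1 alone Sec14l3 was in 83.1%, Ermn in 40.7% and Krt18 in 50.8%, and in run 2 alone they were in 100%, 60% and 73.8%. With 2000 or more genes Krt8 was in 61.4% and Krt18 in 73.5%, and with Omp at 1000 CPM Krt8 was in 40.2%.

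With no filter on mean CPM the percent of genes at least 2-fold lower was 23.2 for uninjured Neurog1 cells over the reference, 24.2 for OMP cells at 14 days over the reference, 23.4 and 27.05 for 5 and 14 days over uninjured, and 30.3 for engrafted over OMP cells at 14 days.

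Log2 ratio of uninjured Neurog1 over reference. With a pseudocount of 10 it was -9.08 for Sec14l3, -5.36 for Ermn, -4.42 for Krt8 and -5.35 for Krt18. Ermn was -6.86 in the FPKM table and -7.67 against run 1. Krt18 was -8.05 with 2000 or more genes and -4.05 with no library filter. Without the uninjured library of highest value Sec14l3 was -11.16 and Krt18 -7.91.

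Log2 ratio of OMP cells at 14 days over reference. With 2000 or more genes, which leaves out libraries q235 and q240, it was -8.24 for Sec14l3, -8.96 for Ermn, -7.93 for Krt8 and -8.89 for Krt18. Without those 2 libraries alone it was -8.28, -6.57, -7.72 and -8.64. Without the single highest library of each gene it was -5.34, -6.35, -7.72 and -3.70. Ermn was -1.39 against run 1, and Krt8 was -3.24 with a pseudocount of 10.

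Log2 ratio of Neurog1 cells after bulbectomy over uninjured. At 5 days Sec14l3 was 5.36 with a pseudocount of 10, 4.88 without its highest library and 1.42 without libraries q78 and q119. Krt18 was 1.82 with a pseudocount of 10, 4.08 with 2000 or more genes and 0.35 with no library filter, and it turned to -0.65 without its highest library and to -1.70 without both libraries. At 14 days Sec14l3 was 1.92 with a pseudocount of 10 and 1.73 without its highest library.

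Log2 ratio of engrafted over OMP cells at 14 days. With 2000 or more genes Sec14l3 turned to 0.089 and Krt18 to -0.46, and Ermn was 0.00. With no library filter Sec14l3 was -1.36, Ermn -2.32 and Krt8 turned to -0.73. Without libraries q235 and q240 Sec14l3 was -0.12, Ermn turned to 3.59, and Krt8 and Krt18 were 4.37 and 6.50. Without the engrafted library of highest value Sec14l3 was -7.49, Ermn -4.45, Krt8 turned to -0.28 and Krt18 to -1.33. Depth limits shares near 10 CPM, since 1 fragment stood for 1.98 CPM at the median depth of the reference.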
